A study of Mus musculus with 157 samples.

Results

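Thymic lymphomas whose genotype label holds a p53(+/D) allele beside RERT2 and Cdc20(D/AAA) were set against lymphomas labelled RERT2 and Cdc20(D/AAA) with no further allele. The members were taken from the genotype labels of the later sequencing run. They were 10 tumours with p53(+/D) and 22 without it, of 76 libraries in that run and 157 in the series. The series asks how mice with the aneuploid Cdc20(D/AAA) genotype differ from Cdc20(+/D) mice in thymocytes, thymus and tumours. Per the labels' protocols, RNA came from unsorted tumour cells, and a tumour is 1 library here. The groups are called p53(+/D) tumours and D/AAA tumours below. Levels are also given for non-tumoral thymus of RERT2 Cdc20(+/D) and RERT2 Cdc20(D/AAA) mice and for a single tumour labelled p53(-/-). The label of that tumour names neither RERT2 nor a Cdc20 allele, so it differs from the groups in more than p53.

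Both groups carry RERT2 and Cdc20(D/AAA). RERT2 is known as a tamoxifen-inducible Cre recombinase inserted in the Polr2a locus, which makes it active in many cell types and not only in thymocytes. The AAA form of Cdc20 is known as one that the spindle checkpoint protein Mad2 cannot bind. The labels say neither what D stands for, nor how many copies of RERT2 a mouse had, nor the age of the mice, nor the state of the second p53 allele in the tumours. They also do not say whether each library came from a separate animal, so the p-values measure the spread between these libraries. No library was identical to another.

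p53, encoded by Trp53 in the mouse, is a transcription factor that is stabilised after DNA damage and other stresses. It binds pairs of half-sites in or near its target genes and activates inhibitors of the cell cycle, inducers of apoptosis and its own negative regulators Mdm2 and Ppm1d. In the thymus it is known to remove damaged thymocytes, and mice without p53 are known to develop thymic lymphomas with many chromosome gains and losses.

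Total counts ran from 1708619 to 7600025 in p53(+/D) tumours and from 2461375 to 6639518 in D/AAA tumours. The shallowest of all was p53(+/D) tumour 5. The T cell markers fixed for the label thymic lymphoma were present in every library, and their summed level was 4618 to 7092 CPM (counts relative to the TMM-scaled library total) in p53(+/D) tumours and 4362 to 8620 CPM in D/AAA tumours. None of these 10 genes passed the test. The ribosomal RNA gene CT010467.1 took 36.5% ± 1.86 of counts in p53(+/D) tumours and 40.4% ± 2.70 in D/AAA tumours (SD, n = 10 and 22), with a permutation p = 0.00028 and an adjusted p = 0.00168 over 6 measures. Counts of genes with this share as a covariate are given below.

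Trp53 lies on chromosome 11 of GRCm38 from 69580359 to 69591873, on the plus strand. Its lowest, median and highest levels were 7.85, 11.8 and 29.5 CPM in p53(+/D) tumours, against 34.1, 183 and 284 CPM in D/AAA tumours. Every p53(+/D) tumour lay below every D/AAA tumour. The means were 14.5 ± 7.73 and 174 ± 60.6 CPM (SD, n = 10 and 22), so that the p53(+/D) tumours held 8.35% of the D/AAA mean. The log2 fold change was -3.58 ± 0.29 (SE) with an adjusted p = 3.84e-10 by edgeR's quasi-likelihood test with Benjamini-Hochberg adjustment. The p53(+/D) tumours were not at 0, with between 16 and 169 Trp53 counts each. Gene counts do not tell which allele a read came from, and fewer cells with a transcript and less transcript per cell cannot be told apart in unsorted tumours.

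Trp53 was the 1 gene of 11453 tested, or 0.00873%, whose levels did not overlap between the groups. On a scaling over the whole later run, the single tumour labelled p53(-/-) had 17.7 CPM of Trp53, and non-tumoral thymus had 159 ± 50.9 CPM in RERT2 D/AAA mice (n = 9) and 117 ± 17.8 CPM in RERT2 +/D mice (n = 6). The p53(+/D) tumours were thus below the lowest +/D thymus library, at 94.2 CPM. Among D/AAA tumours, numbers 2 and 4 had 44.0 and 34.1 CPM, and the next lowest had 98.2 CPM. These 2 tumours stand apart from the other 20 D/AAA tumours in Trp53, and counts are also given without them. In several values given below they lie with the p53(+/D) tumours, for some of these values together with other D/AAA tumours. In others, such as Rps13-ps1, they do not.

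**Figure D1:**
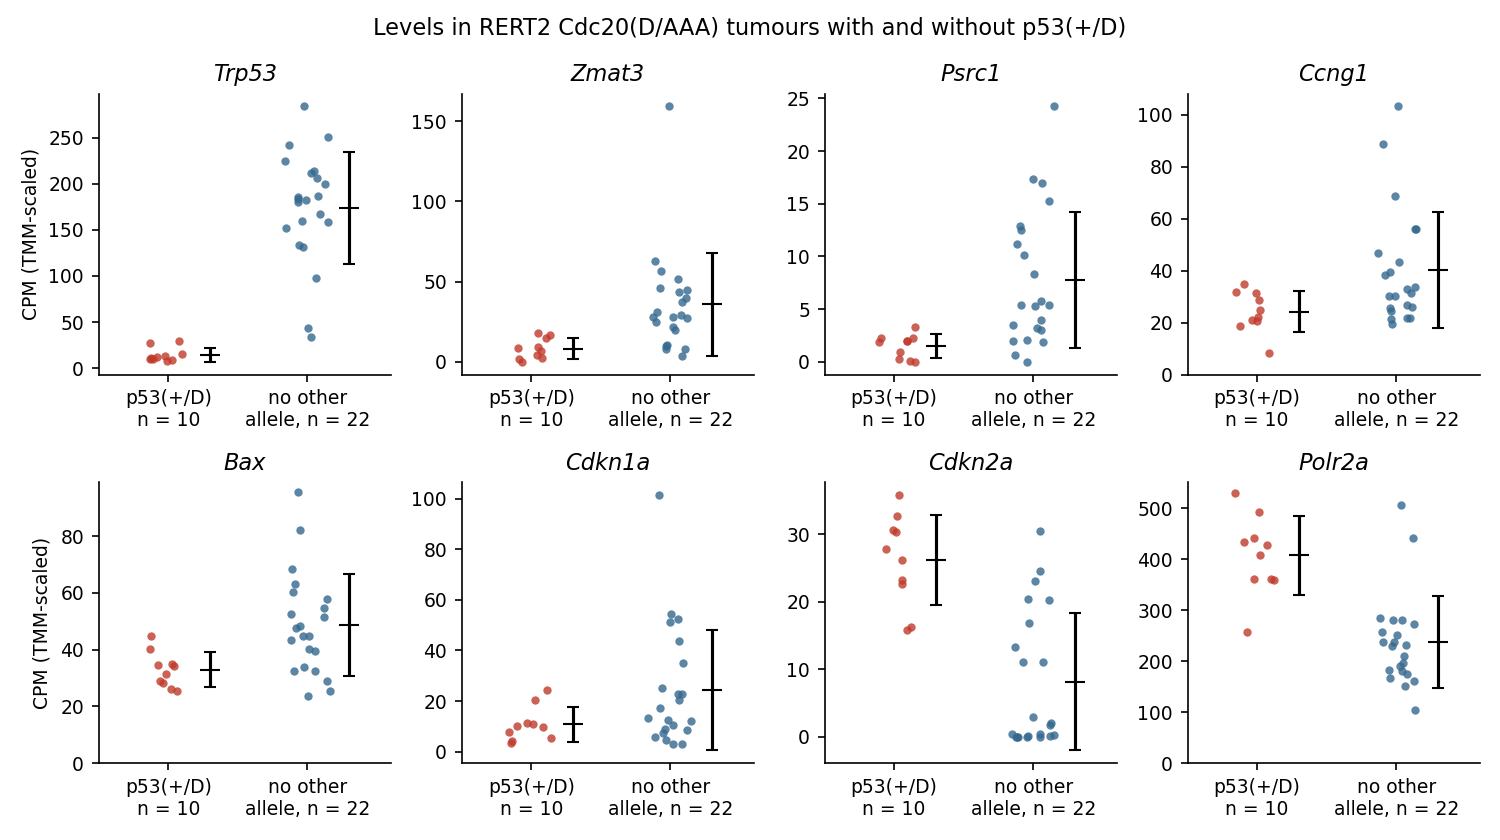
Levels of 8 genes in CPM (linear axes) in p53(+/D) tumours (left, n = 10) and D/AAA tumours (right, n = 22). Points are tumours, and the bar and whiskers beside them are the mean and SD. Trp53 is the gene whose groups do not overlap, from 7.85 to 29.5 CPM against 34.1 to 284 CPM.

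Over all genes, 85 were higher and 63 lower in p53(+/D) tumours at an adjusted p under 0.05, which is 0.742% and 0.55% of the 11453 tested, or 1.29% in either direction. Of the higher genes, 9 passed a 2-fold change, and of the lower genes 27 did. The median log2 fold change was 0.56 for the higher genes, -0.85 for the lower genes and -0.02 for all genes tested. Of the 148, 134 were protein-coding. Without D/AAA tumours 2 and 4, 146 genes were higher and 108 lower, and without D/AAA tumours 1 to 4, 171 were higher and 121 lower. Both sets were picked after the data were seen, so that these counts are no independent support. The groups overlapped on each of the first 3 principal components, which held 11.1%, 10.3% and 7.18% of the variance. On the second, p53(+/D) tumours ran from 0.06 to 27.2 and D/AAA tumours from -39.8 to 24.3. The calls rest on many small differences: leaving out 1 p53(+/D) tumour at a time gave 38 to 119 higher and 37 to 101 lower genes, with the lowest counts without tumour 10. With the CT010467.1 share as a covariate, which itself differed between the groups, 1 gene was higher and 6 were lower. With CT010467.1 removed from the counts instead, 89 genes were higher and 61 lower, of which 85 and 61 were also called in the main fit.

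Direct p53 target genes mostly had lower means in p53(+/D) tumours, but few passed the test. Of 50 targets listed, 38 were tested and 12 were too low to test. Among the 38, 0 were higher and 2, Zmat3 and Psrc1, were lower, against 0.742% and 0.55% of all genes. The median log2 fold change was -0.37 over the 38, beside -0.02 over all genes, and 11 of the 38 had positive values, against 47.3% of all genes. At an unadjusted p under 0.05, 12 of the 38 targets were lower and 1 was higher. Of all 11453 genes tested, 1651 were under this cutoff in either direction. The number of the 38 targets under their median in D/AAA tumours was 20 to 26 per p53(+/D) tumour with a median of 22.5, against 9 to 26 per D/AAA tumour with a median of 20. The counts per tumour of the groups thus overlapped widely. DESeq2 called 5 targets lower and 0 higher, and without D/AAA tumours 2 and 4, picked after the data were seen, edgeR called 3 lower and 0 higher. These fits also called more genes in all. DESeq2 called 185 lower and 176 higher of 11453, and the fit without tumours 2 and 4 called 108 lower and 146 higher of 11291.

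Zmat3, a zinc finger protein that binds RNA and acts in p53-dependent tumour suppression, had 0, 7.82 and 18.1 CPM (lowest, median and highest) in p53(+/D) tumours, against 3.52, 28.7 and 159 CPM in D/AAA tumours. Its log2 fold change was -2.08 ± 0.49 with an edgeR adjusted p = 0.0236. All p53(+/D) tumours were below the D/AAA median, yet D/AAA tumours 2 and 4, with 8.18 and 3.52 CPM, lay among them. In non-tumoral +/D thymus it had 19.9 ± 5.01 CPM (n = 6), and it was at 0 in the p53(-/-) tumour. The call was lost without p53(+/D) tumour 6 or 8, with adjusted p-values of 0.0517 and 0.0528, by voom with quality weights (0.0605) and with the CT010467.1 share as a covariate (-1.43, adjusted p = 0.566).

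Psrc1, which encodes a microtubule-binding protein of the mitotic spindle, had 0, 1.93 and 3.32 CPM in p53(+/D) tumours, against 0, 5.41 and 24.2 CPM in D/AAA tumours. Its log2 fold change was -2.33 ± 0.59 with an edgeR adjusted p = 0.0348. The p53(+/D) tumours filled a narrow low band that some D/AAA tumours shared. The call was lost without p53(+/D) tumour 3, 6, 7 or 10 (adjusted p of 0.0616 to 0.0732), by voom (0.130), with the CT010467.1 share as a covariate (0.522) and with all tumours of the run in 1 fit (0.0551).

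The best-known targets did not pass. Cdkn1a, the cyclin-dependent kinase inhibitor p21, had 3.23, 9.98 and 24.5 CPM in p53(+/D) tumours, against 2.87, 15.2 and 102 CPM in D/AAA tumours, with a log2 fold change of -1.17 ± 0.48 and an edgeR adjusted p = 0.240. The groups shared their lower range, and the levels above 24.5 CPM were all in D/AAA tumours. Ccng1, cyclin G1, had 8.46, 23.6 and 34.9 CPM in p53(+/D) tumours, against 19.6, 32.1 and 103 CPM in D/AAA tumours, with -0.74 ± 0.25 and an adjusted p = 0.134 by edgeR and 0.0495 by DESeq2. Bax, a pore-forming inducer of apoptosis, had 25.3, 32.7 and 44.8 CPM in p53(+/D) tumours, against 23.5, 46.2 and 95.4 CPM in D/AAA tumours, with -0.57 ± 0.18 and an edgeR adjusted p = 0.0991. The median of D/AAA tumours lay above the highest p53(+/D) tumour for Bax, but not for Ccng1. Bax passed in edgeR without D/AAA tumours 2 and 4 (adjusted p = 0.0381) and without D/AAA tumours 1 to 4 (0.0482). Both sets were picked after the data were seen and hold the 2 D/AAA tumours of lowest Trp53, so these passes are no independent support.

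The promoters of these targets are shown because their half-sites are what p53 is known to bind. Each line gives the 250 bases before a transcription start in RefSeq's GRCm38.p6 table, read 5′ to 3′ on the gene's strand, with matches to the p53 half-site in capitals. They are chr7:45466899-45467148 (minus strand) for Bax, chr11:40755287-40755536 (minus) for Ccng1, chr17:29090729-29090978 (plus) for Cdkn1a and chr3:108383554-108383803 (plus) for Psrc1.
Bax: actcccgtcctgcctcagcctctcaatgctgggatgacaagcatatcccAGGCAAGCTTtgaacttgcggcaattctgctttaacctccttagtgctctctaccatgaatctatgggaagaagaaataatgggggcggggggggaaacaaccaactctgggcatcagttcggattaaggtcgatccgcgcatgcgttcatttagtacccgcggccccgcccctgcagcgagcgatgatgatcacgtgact
Ccng1: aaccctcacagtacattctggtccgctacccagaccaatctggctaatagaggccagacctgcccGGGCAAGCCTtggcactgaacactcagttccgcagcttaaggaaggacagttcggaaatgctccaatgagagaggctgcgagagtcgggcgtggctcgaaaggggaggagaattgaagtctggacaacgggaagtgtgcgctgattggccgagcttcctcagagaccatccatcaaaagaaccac
Cdkn1a: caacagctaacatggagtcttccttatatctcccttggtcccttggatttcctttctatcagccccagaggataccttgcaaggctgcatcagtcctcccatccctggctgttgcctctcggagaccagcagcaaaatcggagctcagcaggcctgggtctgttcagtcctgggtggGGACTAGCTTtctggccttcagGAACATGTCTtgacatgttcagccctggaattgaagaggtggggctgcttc
Psrc1: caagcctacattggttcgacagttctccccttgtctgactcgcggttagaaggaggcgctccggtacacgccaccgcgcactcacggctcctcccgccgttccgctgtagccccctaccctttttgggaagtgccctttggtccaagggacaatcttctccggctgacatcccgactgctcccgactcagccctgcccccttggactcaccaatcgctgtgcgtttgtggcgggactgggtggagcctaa

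The half-site of Bax began 201 bases before the start and that of Ccng1 185 bases before it. Cdkn1a held 2 half-sites, which began 73 and 51 bases before this start, and a second Cdkn1a start held none. Psrc1 held none before either of its starts. Over the list, 41 of 50 targets had a promoter in the table, with 60 promoters, and the half-site (searched on both strands from 250 bases before to 50 after the start) was in 23.3% of them, against 8.36% of the 32851 promoters in the table. A pair of half-sites with 0 to 13 bases between them was in 1.67% of the targets' promoters and 0.0731% of all. Target lists are built from such sites, so that these shares describe the list. Among tested targets with a promoter, 10 of 13 with a half-site and 13 of 19 without one had a negative log2 fold change.

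Other targets spanned both directions. Phlda3, an inhibitor of the kinase Akt, and Dglucy had log2 fold changes of -2.60 ± 0.91 and -1.76 ± 0.54, with edgeR adjusted p-values of 0.153 and 0.0969. Apaf1, the scaffold of the apoptosome, had 5.03, 12.2 and 14.8 CPM in p53(+/D) tumours, against 8.55, 17.9 and 31.4 CPM in D/AAA tumours (-0.68 ± 0.22, adjusted p = 0.103 by edgeR and 0.0411 by DESeq2). Mdm2, the ubiquitin ligase that degrades p53, had 11.5, 16.9 and 24.7 CPM in p53(+/D) tumours, against 9.39, 21.8 and 71.1 CPM in D/AAA tumours (-0.40 ± 0.22, edgeR adjusted p = 0.427). For both genes the groups overlapped over most of the p53(+/D) range. Ppm1d, the phosphatase Wip1 that turns p53 signalling off, lies on chromosome 11 and was the target with the largest positive value, 0.84 ± 0.31 (edgeR adjusted p = 0.185). Its levels were 2.24, 8.77 and 13.7 CPM in p53(+/D) tumours, against 0.54, 4.80 and 10.8 CPM in D/AAA tumours.

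**Figure D2:**
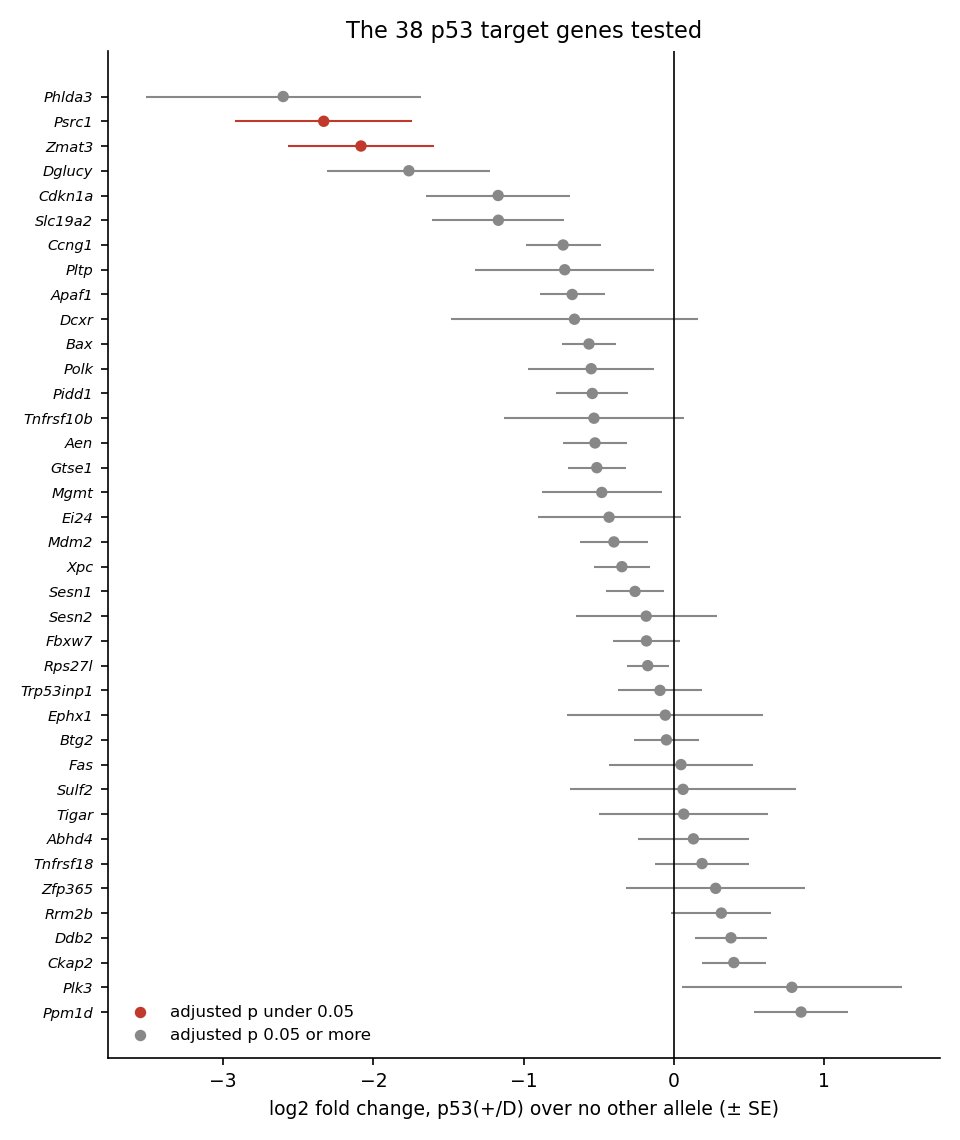
Log2 fold change (p53(+/D) tumours over D/AAA tumours) with its SE for the 38 p53 target genes tested, ordered by value. The 2 that passed the test are coloured, and 27 of the 38 points lie left of 0.

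Among 22 genes that regulate p53 or belong to its family, 20 were tested, 0 were higher and 1, Trp53 itself, was lower. The median log2 fold change was -0.24, and 4 of the 20 were positive, against 47.3% of all genes. Mdm4, which binds and inhibits p53, had 46.6, 71.1 and 98.0 CPM in p53(+/D) tumours, against 52.8, 99.2 and 170.2 CPM in D/AAA tumours. Its log2 fold change of -0.55 ± 0.15 missed the threshold by edgeR (adjusted p = 0.0575) and passed it in 9 of 22 alternatives. The groups overlapped, with the D/AAA median above the highest p53(+/D) tumour. The sensor kinases Atm and Atr and their effectors Chek1 and Chek2 had values between -0.41 and 0.06, with adjusted p-values of 0.496 or more by edgeR.

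Cdkn2a, whose locus encodes p16INK4a and p19ARF, an inhibitor of Mdm2, had 15.9, 27.0 and 35.9 CPM in p53(+/D) tumours, against 0, 1.87 and 30.5 CPM in D/AAA tumours. All 10 p53(+/D) tumours were at 15 CPM or more, while 6 of 22 D/AAA tumours were and 13 were under 3 CPM. D/AAA tumours 2 and 4 were among the high ones, with 23.1 and 30.5 CPM. The p53(-/-) tumour had 30.5 CPM on the whole-run scaling, and the +/D thymus libraries were all at 0. The log2 fold change was 1.69 ± 0.72 and did not pass by edgeR (adjusted p = 0.259), nor did it in 21 of 22 alternatives. It passed by voom with quality weights (3.86, adjusted p = 0.000315). A gene count does not separate the 2 products of this locus.

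No tested gene within 2 Mb of Trp53 was called lower with it, where few such calls were to be found in any case. Of the 73 other genes tested there 5 were higher and 0 lower, against 0.742% and 0.55% of all genes. Their median log2 fold change was 0.32, with positive values in 59. The adjoining gene Wrap53 had 0.30 ± 0.18 (edgeR adjusted p = 0.478). Between 2 and 10 Mb away, 4 of 160 were higher and 1, Rap1gap2, was lower, with a median of 0.20. Over the whole of chromosome 11 without Trp53, 21 of 969 genes were higher and 5 lower. Their median was 0.19, against -0.04 for the 10483 genes on other chromosomes. Polr2a, the largest subunit of RNA polymerase II and the known site of the RERT2 insertion, starts 0.154 Mb distal to the start of Trp53. It rose in p53(+/D) tumours, with 258, 419 and 530.1 CPM against 105, 231 and 506 CPM in D/AAA tumours (0.78 ± 0.16, edgeR adjusted p = 0.00785). The D/AAA tumours above the p53(+/D) median were numbers 2 and 4, with 506 and 441 CPM. On the whole-run scaling, Polr2a was at 209.9 CPM in the p53(-/-) tumour, whose label does not name RERT2. In RERT2 +/D thymus it was at 235 ± 30.7 CPM. Psmb6, a proteasome subunit, also rose (0.64 ± 0.13, adjusted p = 0.0066), as did Tmem107, Senp3 and Spag7, whose calls were each lost without any 1 of several p53(+/D) tumours.

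**Figure D3:**
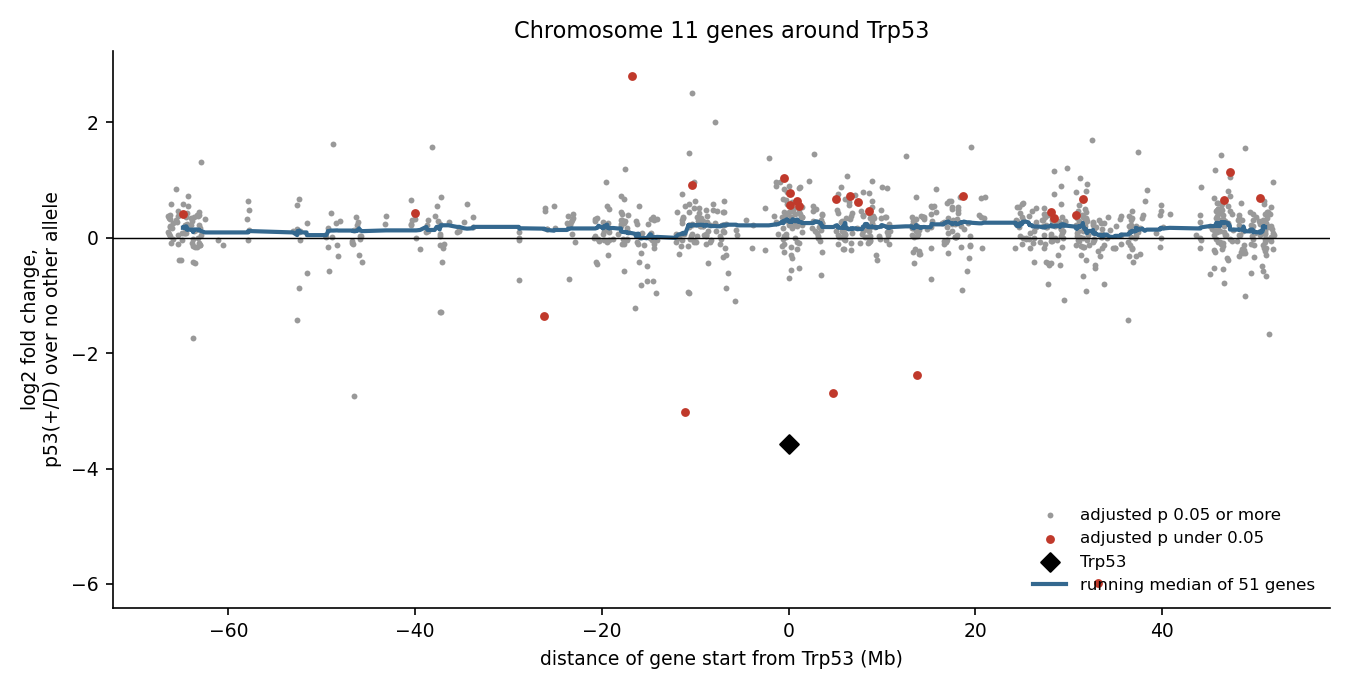
Log2 fold change (p53(+/D) tumours over D/AAA tumours) of each tested gene on chromosome 11 against the distance of its start from that of Trp53 in Mb. Coloured points passed the test, the line is the running median of 51 genes and the diamond is Trp53 at -3.58, and most genes on both sides lie above 0.

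The higher genes lay mostly on 3 chromosomes. Chromosomes 4, 5 and 11 held 29, 16 and 21 of the 85, which is 77.6% of them, beside 21.1% of the genes tested. Elsewhere 19 of 9034 genes were higher, or 0.21%. The shift was broad and small: 75.6%, 70.1% and 71.1% of the genes on these chromosomes had positive values, against 40.6% elsewhere, and the chromosome medians were 0.23, 0.18 and 0.19. Chromosome X had a median of -0.22 with 8 genes lower and 1 higher. These chromosomes were picked out after the values were seen, and over the alternatives their share of the higher genes ran from 31.4% with no low-count filter to 84.8% in the other fits with more than 1 higher gene.

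**Figure D4:**
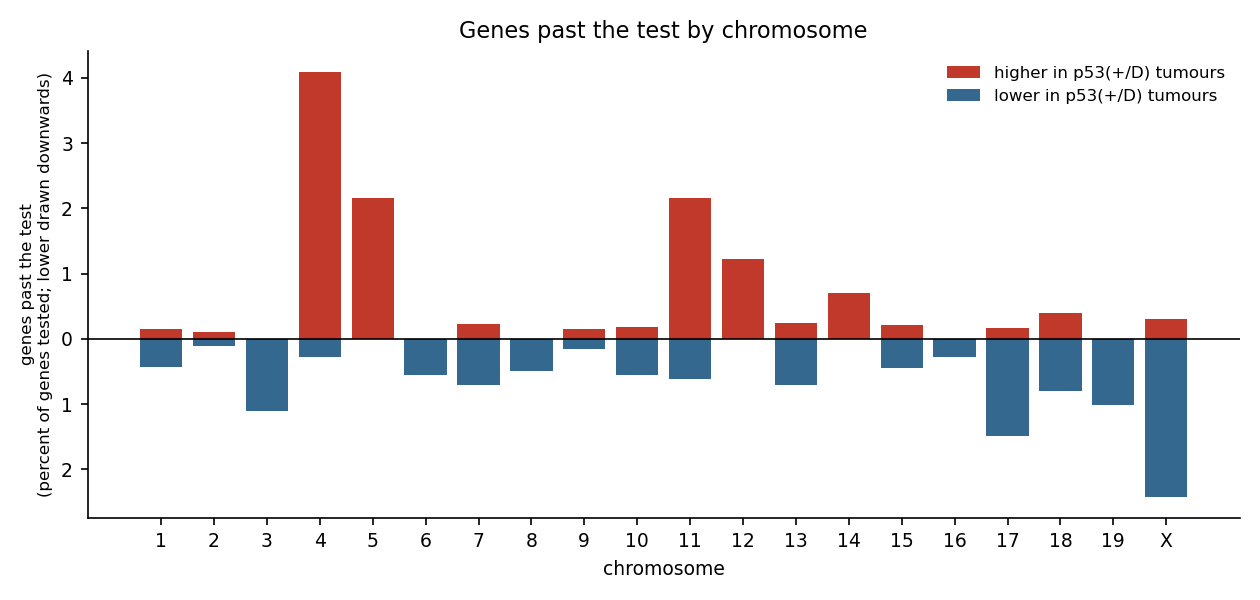
Genes past the test on each chromosome as a percent of the genes tested there, with genes higher in p53(+/D) tumours drawn upwards and lower genes downwards. Chromosome 4 has the tallest upward bar, with 29 of 709 genes, followed by chromosomes 11 (21 of 970) and 5 (16 of 740).

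A chromosome score, the mean centred log2 CPM of all genes of at least 10 CPM on a chromosome, was compared between the groups by permutation tests with 100000 resamples, adjusted over 20 chromosomes. Scores were higher in p53(+/D) tumours for chromosome 4 (difference 0.25 ± 0.06 SE, adjusted p = 0.0064), chromosome 5 (0.19 ± 0.06, adjusted p = 0.0064) and chromosome 11 (0.19 ± 0.07, adjusted p = 0.0312). They were lower for chromosomes 3 (-0.11), 8 (-0.09), 13 (-0.11), 19 (-0.11) and X (-0.18), with permutation p-values adjusted to 0.026, 0.0392, 0.0397, 0.0114 and 0.0064. On chromosome 4, 9 of 10 p53(+/D) tumours were above the D/AAA median, and p53(+/D) tumour 1 was the exception at -0.22. On chromosome X all 10 were below it. Chromosomes 4, 5 and X passed in all 16 alternatives run. Chromosome 11 passed in 10 of 16, and was lost when p53(+/D) tumour 1, 2, 3, 6, 8 or 10 was left out, with adjusted permutation p-values of 0.0523 to 0.0616. The difference on chromosome 11 kept its sign throughout, between 0.16 and 0.24. Of the lower ones, chromosome 19 passed in 15 of 16 alternatives and chromosome 3 in 11, while chromosome 8 passed in 6 and chromosome 13 in 5. Chromosome 19 was lost when scores were centred on thymus and the median autosome of the library (adjusted permutation p = 0.151). Chromosomes 3, 8 and 13 were lost in that setting, when centred on thymus alone and with genes down to 1 CPM. Their adjusted permutation p-values in these settings ran from 0.0539 to 0.23. Chromosome 8 was lost without p53(+/D) tumour 3, 4, 5, 6, 7, 8 or 10 (adjusted permutation p of 0.0525 to 0.0991), chromosome 13 without tumour 2, 3, 4, 5, 7, 8, 9 or 10 (0.0514 to 0.0991) and chromosome 3 without tumour 6 or 10 (0.0526 and 0.0564).

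Relative to +/D thymus, a score above 0.292, or 1.22-fold, was counted as a gain. Scores of chromosomes 14 and 15 were gained in 10 of 10 and 10 of 10 p53(+/D) tumours, against 21 and 22 of 22 D/AAA tumours. Chromosome 4 was gained in 8 of 10 p53(+/D) tumours against 6 of 22 D/AAA tumours, chromosome 5 in 8 of 10 against 2 of 22, and chromosome 11 in 6 of 10 against 4 of 22. At least 2 of chromosomes 4, 5 and 11 were gained in 8 of 10 p53(+/D) tumours against 3 of 22 D/AAA tumours, and none of them in 0 of 10 against 14 of 22. D/AAA tumours 2 and 4 were gained for both chromosome 4 (0.44 and 0.51) and chromosome 11 (0.41 and 0.50). So was D/AAA tumour 19 (0.35 and 0.33), whose Trp53 was not low. Chromosome 5 was gained in D/AAA tumour 2 (0.38) but not in D/AAA tumour 4 (0.06). Chromosome 12 was gained in 6 of 10 p53(+/D) tumours and 11 of 22 D/AAA tumours. Chromosome X was under -0.292 in 5 of 10 p53(+/D) tumours and 2 of 22 D/AAA tumours. These scores are expression levels, and DNA copy number was not measured here.

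**Figure D5:**
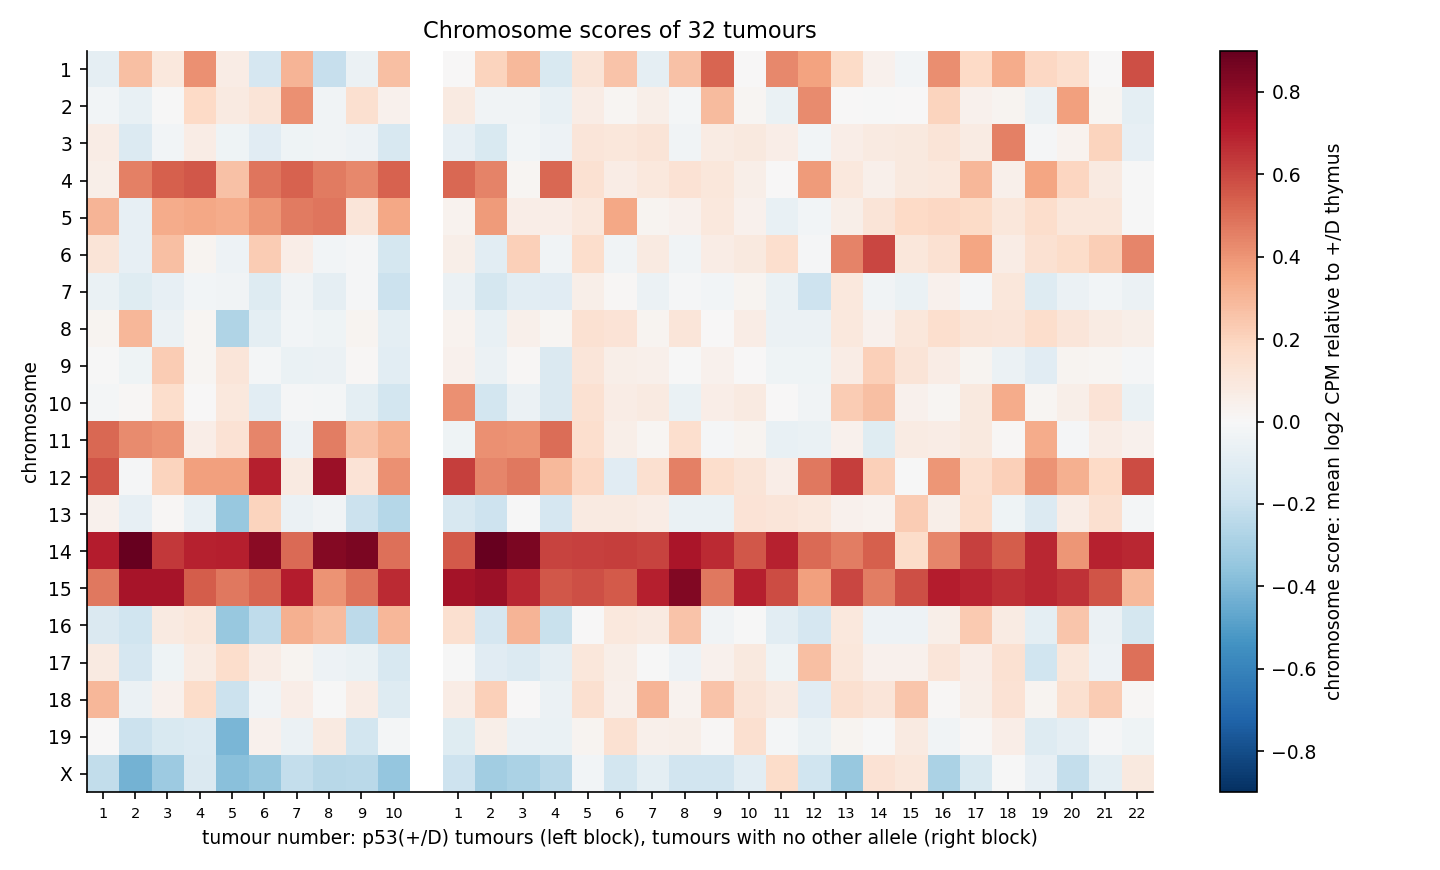
Chromosome scores (mean log2 CPM relative to +/D thymus, colour scale) of 10 p53(+/D) tumours (left block) and 22 D/AAA tumours (right block), with chromosomes as rows. Chromosomes 14 and 15 are red in nearly all tumours, and chromosomes 4, 5 and 11 are red in 8, 8 and 6 of 10 p53(+/D) tumours against 6, 2 and 4 of 22 D/AAA tumours.

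Per library, 3 to 7 autosomes were gained in p53(+/D) tumours (mean 5.5 ± 1.27), against 1 to 6 in D/AAA tumours (3.82 ± 1.44), with a permutation p = 0.0043 and an adjusted p = 0.00852 over 6 measures. The difference in gains did not pass at gain thresholds of 0.146 and 0.439. The spread of autosome scores within a library was 0.278 ± 0.031 in p53(+/D) tumours and 0.221 ± 0.047 in D/AAA tumours (SD, permutation p = 0.0017, adjusted p = 0.00522). Autosomes scored as lost numbered 3 in p53(+/D) tumour 5 and 0 in all other tumours of both groups, and the difference did not pass (adjusted permutation p = 0.375). The top Trbv segment, a mark of how clonal a T cell tumour is, took 66.3% ± 23.5 of Trbv counts in 9 p53(+/D) tumours and 73.3% ± 21.7 in 19 D/AAA tumours that had at least 100 such counts (permutation adjusted p = 0.441). The top Trav segment took 14.9% ± 10.1 and 23.6% ± 19.4 in all 10 and 22 tumours (permutation adjusted p = 0.299).

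Most of the named genes that rose lay on chromosomes 4 and 11 and changed by less than 2-fold. On chromosome 4, Smu1, a splicing factor, rose by 0.57 ± 0.08 on the log2 scale (edgeR adjusted p = 0.000168), with 103, 133 and 151 CPM in p53(+/D) tumours against 68.4, 83.5 and 116 CPM in D/AAA tumours. Rer1, a sorting receptor of the early secretory pathway, rose by 0.56 ± 0.09, Park7, a protein that guards against oxidative stress, by 0.53 ± 0.10, and Rad23b, a partner of Xpc in nucleotide excision repair, by 0.74 ± 0.15. Minos1, Ndufaf6 and Hint2, nuclear genes of mitochondrial proteins on this chromosome, had 0.57, 1.02 and 0.98. Melk, a mitotic kinase, had 0.88 ± 0.21, and Zcchc17 0.56 ± 0.11. The calls of Hint2, Ndufaf6 and Melk were lost in 6, 4 and 4 of the 10 fits without 1 p53(+/D) tumour. The medians of Smu1, Rer1 and Park7 in p53(+/D) tumours were above the highest D/AAA tumour, while their lowest p53(+/D) tumours overlapped the D/AAA range. On chromosome 11, Mettl23, Tmem107, Mrpl55 and Rpl23a had 1.14 ± 0.21, 1.04 ± 0.26, 0.91 ± 0.21 and 0.46 ± 0.09, and all passed. The calls of Tmem107 and Mrpl55 were lost in 5 and 2 of the 10 fits without 1 p53(+/D) tumour. Rpl23a has processed copies elsewhere in the genome, so that its count is less certain.

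Lypd1, Fstl4, Ahi1 and Acot13 were the other named genes that rose. Lypd1, a member of the Ly6 family on chromosome 1, had 0, 15 and 67.4 CPM in p53(+/D) tumours, against 0, 0.09 and 10.5 CPM in D/AAA tumours (3.41 ± 0.83, edgeR adjusted p = 0.029). Fstl4, a secreted protein of the follistatin family on chromosome 11, had 6.52, 19.3 and 33.8 CPM in p53(+/D) tumours, against 0, 0.31 and 22.2 CPM in D/AAA tumours (2.80 ± 0.72, edgeR adjusted p = 0.0408). Both had a median near 0 in D/AAA tumours, and the groups overlapped for both. On the whole-run scaling Fstl4 was at 40.1 CPM in the p53(-/-) tumour and 0.44 ± 0.65 CPM in +/D thymus. The Fstl4 call was lost without p53(+/D) tumour 1, 2, 3, 6, 8 or 10, and that of Lypd1 without tumour 2, 7 or 10. Ahi1 on chromosome 10, known as a common retroviral insertion site in mouse leukaemia, had 18.1, 31.9 and 106 CPM in p53(+/D) tumours, against 5.17, 13.4 and 42.8 CPM in D/AAA tumours (1.38 ± 0.27, edgeR adjusted p = 0.00472). Acot13, a mitochondrial thioesterase, had 0.79 ± 0.20, and its call was lost in 6 of the 10 fits without 1 p53(+/D) tumour.

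The named genes that fell lay on many chromosomes. Plp2, a membrane protein encoded on chromosome X, had 35.1, 74.0 and 102 CPM in p53(+/D) tumours, against 77.1, 151 and 207 CPM in D/AAA tumours (-1.04 ± 0.15, edgeR adjusted p = 0.000168). With Smu1 it kept its call in all 22 alternatives. Acadl, an enzyme of fatty acid oxidation, had 1.24, 5.37 and 8.72 CPM in p53(+/D) tumours, against 2.61, 17.7 and 38.5 CPM in D/AAA tumours (-1.84 ± 0.35, adjusted p = 0.00423). Rap1gap2, which switches off Rap1, had -2.68 ± 0.69, the polarity gene Pard6g -1.71 ± 0.38 and Arhgdib -0.82 ± 0.15. The convertase Furin (-1.47 ± 0.37), the co-chaperone Bag3 (-1.36 ± 0.34), the prostaglandin receptor Ptger1 (-1.10 ± 0.25), the ribosomal protein paralog Rpl22l1 (-1.29 ± 0.26), Atl3 (-0.85 ± 0.16), the nuclear pore gene Nup210 (-0.74 ± 0.13) and Zfp592 (-0.72 ± 0.14) also fell. The calls of Rap1gap2, Furin and Bag3 were each lost without any 1 of several p53(+/D) tumours. Of 33 named genes past the threshold besides Trp53, 20 kept their call whichever p53(+/D) tumour was left out. With the CT010467.1 share as a covariate, 31 of the 33 lost it.

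Few genes of the spindle checkpoint and mitosis list passed the test. Of 34 spindle checkpoint and mitosis genes 0 were higher and 1 was lower, against 0.742% and 0.55% of all genes, and their median was 0.01. The 1 was Pttg1, securin, which holds separase inactive until Cdc20 and the anaphase-promoting complex mark it for destruction. It had 11.3, 19.9 and 30.2 CPM in p53(+/D) tumours, against 12.6, 48.8 and 96.3 CPM in D/AAA tumours (-1.35 ± 0.25, edgeR adjusted p = 0.00348). All 10 p53(+/D) tumours were below the D/AAA median. Besides Melk and Psrc1, other mitotic genes outside the list also passed. Cdca8 and Cdc26 were higher (0.48 and 0.42, edgeR adjusted p = 0.0205 and 0.0366), and Kifc1 was lower (-0.86, edgeR adjusted p = 0.0205). Cdc20 itself had 53.4, 101 and 135 CPM in p53(+/D) tumours, against 28.5, 86.6 and 147 CPM in D/AAA tumours (0.19 ± 0.19, edgeR adjusted p = 0.717), and separase, Espl1, had -0.15 ± 0.16. Bub1b and Aurkb, a checkpoint kinase and a kinase that corrects chromosome attachment, had -0.54 ± 0.16 and 0.45 ± 0.14, with edgeR adjusted p-values of 0.0845 and 0.0989. The motif TTTGAA, searched on both strands as a core of cell cycle promoters, was in 67.7% of 31 promoters of 28 of the listed genes, against 17.9% of all promoters. The motif TTCGAA was in 9.68% and 1.56%.

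Proliferation and growth lists had few or no calls, beside 0.742% of all genes higher and 0.55% lower. Of 32 S phase genes 1 was higher, Rfc3, a subunit of the clamp loader encoded on chromosome 5 (0.58 ± 0.13, edgeR adjusted p = 0.0154, lost without p53(+/D) tumour 10). Of 24 respiratory chain genes 1 was higher, Cox6a1, also on chromosome 5 (0.50 ± 0.10, edgeR adjusted p = 0.00785). The medians were -0.02 for S phase genes, 0.07 for respiratory chain genes, 0.12 for 18 glycolysis genes and 0.06 for 30 MYC targets and ribosome biogenesis genes, with 0 calls in the last pair of lists. Myc, on chromosome 15, had 149.9, 200 and 351 CPM in p53(+/D) tumours, against 79.0, 167 and 352 CPM in D/AAA tumours (0.18 ± 0.21, edgeR adjusted p = 0.766). Its groups overlapped throughout.

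Antigen presentation genes had lower means throughout. All 15 MHC class I presentation genes had negative values, with a median of -0.38, beside positive values in 47.3% of all genes tested. Of the 15, 0 were higher and 2 lower, against 0.742% and 0.55% of all genes. Tapbp, tapasin, which loads peptides onto MHC class I, had 21.5, 31.1 and 60.8 CPM in p53(+/D) tumours, against 28.4, 66.3 and 113 CPM in D/AAA tumours (-0.91 ± 0.19, edgeR adjusted p = 0.00958). Erap1, which trims those peptides, had 16.6, 43.7 and 67.8 CPM in p53(+/D) tumours, against 32.9, 75.2 and 111 CPM in D/AAA tumours (-0.83 ± 0.18, edgeR adjusted p = 0.0137). Both overlapped between the groups with no p53(+/D) tumour above the D/AAA median. The class I chains H2-K1 and H2-D1 had -0.52 and -0.41 and did not pass (edgeR adjusted p-values of 0.480 and 0.406). Among 19 interferon-inducible genes tested, 0 passed, with a median of -0.40 and 5 positive values.

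Genes of thymocyte stages were variable within both groups, and 0 of 11 double negative, 16 double positive and 22 mature stage genes tested passed. Their medians were -0.74, 0.19 and -0.35. Rag1, a subunit of the recombinase that assembles T cell receptor genes, had 84.7, 245 and 447 CPM in p53(+/D) tumours, against 0.57, 126 and 220.3 CPM in D/AAA tumours (1.0, edgeR adjusted p = 0.222). Rag2 had 4.97, 29.2 and 73.0 CPM in p53(+/D) tumours, against 0, 9.19 and 32.6 CPM in D/AAA tumours (1.3, adjusted p = 0.187). Both overlapped between the groups, though for Rag1 the p53(+/D) median lay above the highest D/AAA tumour.

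Death, cell cycle inhibitor, repair and signalling lists also gave 0 calls: 19 BCL2 family and cell death genes tested, with a median of -0.21, 15 D cyclins, CDKs and CDK inhibitors (-0.06), 30 DNA damage repair genes (-0.04), 14 Notch receptors and targets (-0.30), 24 T lymphoma drivers and suppressors (-0.12), 25 T cell receptor signalling genes (-0.18), 21 T lineage factors (-0.05), 25 chaperones (0.01) and 15 inflammatory genes (-0.23).

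No tested marker of another cell type passed, against 0.742% of all genes higher and 0.55% lower, but many markers were too low to test. Those tested were 0 of 10 for granulocytes, 2 of 10 for endothelium, 3 of 10 for B cells, 3 of 11 for fibroblasts and 4 of 12 for thymic epithelium. For macrophages and monocytes they were 8 of 12, and for gamma delta T cells 8 of 10. A list with 0 tested genes could not pass. The largest shift in a summed level was for thymic epithelium, at 90.3 to 352 CPM in p53(+/D) tumours (median 160.1) and 43.5 to 185 CPM in D/AAA tumours (median 94.6). It came from Ctsl, a lysosomal protease also made by many other cells, at 137 and 59.4 CPM on average (1.21, edgeR adjusted p = 0.0719). The defining epithelial genes Foxn1 and Krt14 were at 0 in all 32 libraries, and Krt5 and Krt8 at 0 in all p53(+/D) tumours. Red cell markers summed to at most 239 CPM in p53(+/D) tumours and 1515 CPM in D/AAA tumours, and B cell markers to at most 26.1 and 51.8 CPM.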

How the data were processed

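Unsorted thymic lymphomas were profiled by bulk RNA-seq. Per the submitters' processing notes, reads were handled with FastQC, STAR 2.5.3a and RSEM 1.3.0 on GRCm38. The authors deposited expected counts (RSEM's estimated counts per gene) that were all whole numbers. For strandedness and annotation release, no source used here gives an answer. Names and positions came from GENCODE M21, with a symbol for 50462 of 50686 genes. Every column had a sample.

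Genes were kept by filterByExpr, scaled by TMM within the 2 groups, and tested by the robust, 2-sided quasi-likelihood test of edgeR 4.0.16 in R 4.3.3, with Benjamini-Hochberg adjustment over all genes tested and a threshold of 0.05. The SE of a fold change was taken as its size over the root of its F value. Levels in thymus and in the p53(-/-) tumour used TMM over the later run. A chromosome score was the mean log2 CPM (prior count 2) over its genes with 10 CPM or more, each centred on the 32 tumours for tests or on +/D thymus for gains, with T cell receptor and immunoglobulin segments left out. Group differences of scores and library measures were tested by permutation with 100000 resamples, 2-sided. Promoters were 250 bases before to 50 after each start in a RefSeq table.

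Named genes were protein-coding, past the threshold, of at least 5 CPM in 1 group and with at least 80% of p53(+/D) tumours on the same side of the D/AAA median: the 12 with the largest change and the 8 with the smallest p in each direction. Xist, Tsix, Y-linked genes, receptor segments, genes of the mitochondrial genome and names that are only identifiers were not eligible. The values of 1 list member are not reported here. Members of lists that passed could be named too, and Trp53, Cdc20 and Myc always were. Members of lists named without passing, and called genes named as lying outside a list, were chosen with their values in view. The groups, the 33 gene lists and the tests were chosen with earlier results of these data known, so that they are no independent evidence.

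The alternatives comprised limma 3.58.1 voom with quality weights, DESeq2 1.42.0, no low-count filter, factors by relative log expression, CT010467.1 removed or its share as a covariate, the Xist level as a covariate, all tumours of the run in 1 fit, the 2 libraries of low total count (under 0.5 times the median) left out, D/AAA tumours 21 and 22 left out, each p53(+/D) tumour left out in turn, other score floors, centring, trimming and gain thresholds. Leaving out D/AAA tumours 2 and 4 or 1 to 4, and centring on thymus and the median autosome, were added after seeing the data. The gene test was also tested on simulated data. Tables and plots were made in Python 3.11.15.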

Additional observations from a re-analysis of the deposited data

Results flagged for a closer look

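In 11 of 122 values checked across the 10 p53(+/D) tumours, 1 tumour lay apart from the other 9 by more than Dixon's critical value, and chance flags about 1 in 20 such groups. Ahi1 was at 106 CPM in tumour 8, against 18.1 to 60.3 CPM in the others. Arhgdib was at 135 CPM in tumour 10, against 242 to 350.3 CPM. Tumour 5, the shallowest library, had 351 CPM of Myc (150 to 233 CPM in the others), 7.13 CPM of Plk3 (0 to 3.23 CPM) and 39.8 CPM of Ppp1r13b (5.01 to 22.6 CPM). Phlda3 was at 3.50 CPM in tumour 7, against 0 to 1.78 CPM. Dglucy was at 14.7 CPM in tumour 1, against 0.87 to 8.05 CPM. Hipk2, a kinase that phosphorylates p53, was at 12.4 CPM in tumour 2, against 0 to 5.98 CPM.

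Among chromosome scores centred on the 32 tumours, chromosome 2 was at 0.32 in tumour 7, against -0.14 to 0.09 in the others. Chromosome 4 was at -0.22 in tumour 1, against 0.06 to 0.29. Chromosome 8 was at 0.27 in tumour 2, against -0.27 to 0.02.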

How the results depend on the processing

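Trp53 kept its direction and its side of the threshold in all alternatives, with adjusted p-values up to 3.4e-07. Genes higher and lower in p53(+/D) tumours numbered 176 and 185 by DESeq2, 439 and 113 with no low-count filter, 320 and 139 by voom with quality weights, 1 and 6 with the CT010467.1 share as a covariate, and 159 and 95 without the 2 libraries of low total count. With all tumours of the run in 1 fit 132 were higher. Without D/AAA tumours 2 and 4 they numbered 146 and 108, and without D/AAA tumours 1 to 4, 171 and 121. Leaving out 1 p53(+/D) tumour gave 38 to 119 higher and 37 to 101 lower. The cause of these shifts was not tested. Of all calls, 57.4% were higher, against 79.5% with no filter, 69.7% by voom and 14.3% with the CT010467.1 share. Without a filter the median log2 fold change of all genes was -0.12.

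Chromosome scores past the threshold numbered 8, against 5 with genes down to 1 CPM, 5 when centred on thymus, 4 when centred on thymus and the median autosome, and 4 to 8 without 1 p53(+/D) tumour. The difference in autosomes gained was 1.68, and 0.945 (permutation adjusted p = 0.239) at a gain threshold of 0.146 in place of 0.292 and 0.855 (0.0777) at 0.439. The difference in autosomes lost was 0.3, and 1.45 (0.0244) at the lower threshold. No named gene past the threshold reversed its direction. Among genes that did not pass, Mdm2 ran from -0.48 to 0.05 and Chek2 from -0.10 to 0.19, and the median of all genes was 0.01 by voom. No paired analysis was possible because the labels give no replicate numbers that the groups share. Depth limits genes of a few CPM, since a library of 1708619 counts gives them few reads.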

Other observations

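The lower genes included processed pseudogenes whose levels in the p53(+/D) tumours were shared by a few D/AAA tumours and were higher in the rest. Rps13-ps1 was at 18.8 to 48.7 CPM in all p53(+/D) tumours, at no more than that in 5 D/AAA tumours (numbers 5, 9, 10, 18 and 19), and at 295 to 938 CPM in the other 17 (-3.81, edgeR adjusted p = 0.00106). Rps15a-ps8 was at 0 to 0.64 CPM in p53(+/D) tumours and at up to 0.51 CPM in the same 5 D/AAA tumours, against 15.9 to 77.6 CPM in the other 17 (-7.57, edgeR adjusted p = 0.00025). The pseudogenes Pcna-ps2 and Gm6612 and the gene Gm10184, annotated as protein-coding, each had 4 D/AAA tumours in the p53(+/D) range, and shared 0 to 2 of them with the tumours low in Rps13-ps1. The transcript AA465934 was at 2.97 to 9.55 CPM in p53(+/D) tumours and at 2.74 and 3.98 CPM in D/AAA tumours 4 and 16, against 16.2 to 50.3 CPM in the other 20 (-2.38, edgeR adjusted p = 3.54e-05). Pseudogene counts can share reads with near-identical parent genes, so that their levels are uncertain. What sets these D/AAA tumours apart was not tested.

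The higher genes had shorter transcripts than the rest, with a median length of 1535 bases, against 3274 bases for the lower genes and 3216 bases for all genes tested. Their median GC content was 49.9%, against 51.7% and 49.8%. The share of counts in mitochondrial genes was 1.99% ± 0.39 in p53(+/D) tumours and 1.80% ± 0.351 in D/AAA tumours (SD, not tested).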
